A study of Arabidopsis thaliana with 12 samples.

Results

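The roots of 2 wild-type lines of Arabidopsis thaliana, Col-7 and Col-0, were compared on ATH1 arrays. These arrays measure each transcript with a probe set, which is a group of short DNA probes. The comparison takes the 3 arrays titled as Col-7 root and the 3 titled as Col-0 root, 6 of the 12 arrays in the series, and 22746 of its 22810 probe sets, since 64 control probe sets were left out. By the labels Col-0 is the wild type that belongs to sahy1, a T-DNA insertion mutant of the nucleolar protein gene SAHY1, and Col-7 is the one that belongs to SAHY1OE, a single line that overexpresses SAHY1. Neither wild-type group carries a transgene, an insertion or a treatment according to the labels. All plants were 12 d old, with 5 d on basal medium before transfer to fresh medium and 7 d after it, and the arrays were made in biological triplicate. The sahy1 and SAHY1OE arrays enter the same model, where they add to the estimate of the spread, and their signals are given here only beside those of the wild types.

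Lines of the Columbia accession are kept and propagated separately in many laboratories and stock centres, and they serve as the reference against which a mutant or a transgenic line is measured. A root consists of a meristem, which makes the cells, and of differentiated tissues such as the vasculature, the endodermis and the hair-bearing epidermis. A comparison of 2 wild types shows which transcripts differ between plants that by their labels carry neither the mutation nor the transgene. The seed sources of the 2 lines are not given, and the cause of any difference was not tested.

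Names are given to probe sets that pair with exactly 1 gene in the platform table. This was so for 13513 probe sets (59.4%), while 503 paired with several genes and 8730 with none. A gene counts as measured here only where such a named probe set passed the filter on low signals. Other genes may still have probe sets on the arrays without a name, and a gene list need not hold every member of its family. Most of the named genes carry only a locus code, such as AT1G23960, which gives the chromosome and the order along it. No role is given here for those genes unless the study's own table of ribosomal genes supplies one.

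The 6 arrays were alike in scale. Their median signals lay within the 192 to 204 found over all 12 arrays, and Col-0 replicate 1 had 333 values under 1 against 50 to 118 in the other 5. Without that array 243 probe sets were called, 173 higher and 70 lower, against the 250, 176 and 74 given below for all arrays. Arrays of 1 group correlated at r of at least 0.972 over the log2 signals, and a Col-7 and a Col-0 array at r from 0.947 to 0.962. SAHY1 (AT2G01640) had a signal of 348 ± 97.0 in Col-0 and 265 ± 16.4 in Col-7 (SD, n = 3 each), which did not pass the test (log2 fold change -0.36, limma adjusted p = 0.882). The spread in that test is shared by all groups and takes in the sahy1 arrays, which ranged from 7.01 to 143 for this gene. The Col-0 and Col-7 arrays overlapped. Few root markers could be named from the platform table (2 of 30 on the root marker list). PYK10, a beta-glucosidase abundant in roots, had signals of 17921, 20056 and 19855 in Col-0 and of 18793, 25378 and 20030 in Col-7, and the groups overlapped (log2 fold change 0.14, limma adjusted p = 0.699). EXPA7 and EXPA18, 2 expansins of root hairs, had log2 fold changes of 0.10 and -0.08 (limma adjusted p = 0.839 and 0.872). No seed storage gene of the fixed list had a probe set named for it, so these genes could not be read here.

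Col-7 roots differed from Col-0 roots in 250 of the 13834 probe sets kept after a filter on low signals (1.81%). Of these, 176 were higher in Col-7 (1.27%) and 74 were lower (0.535%), with a fold above 2 and a limma adjusted p under 0.05. The methods' unpaired test, also Benjamini-Hochberg adjusted, gave 25 calls (0.181%), and 251 at an unadjusted p under 0.05 with the same fold (1.81%). Genes with little or no signal in Col-0 led the list: AT1G23960, QQS, AT5G43030, AT3G48080 and AT1G43590 had the largest rises. AT3G28310 and AT3G28320, neighbours on chromosome 3, had the largest falls. The median log2 fold change was 1.52 among the higher calls and -1.21 among the lower calls, against -0.01 over all probe sets kept. All 176 higher calls and 73 of the 74 lower calls had Col-7 arrays that did not overlap with the Col-0 arrays. This follows largely from the rule for calls, which used the same arrays, and is no separate support for them. Over all probe sets kept, every Col-7 array lay above every Col-0 array in 1446 (10.5%) and below in 1444 (10.4%). In roots taken whole, fewer cells of a type and less RNA per cell cannot be told apart.

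**Figure D1:**
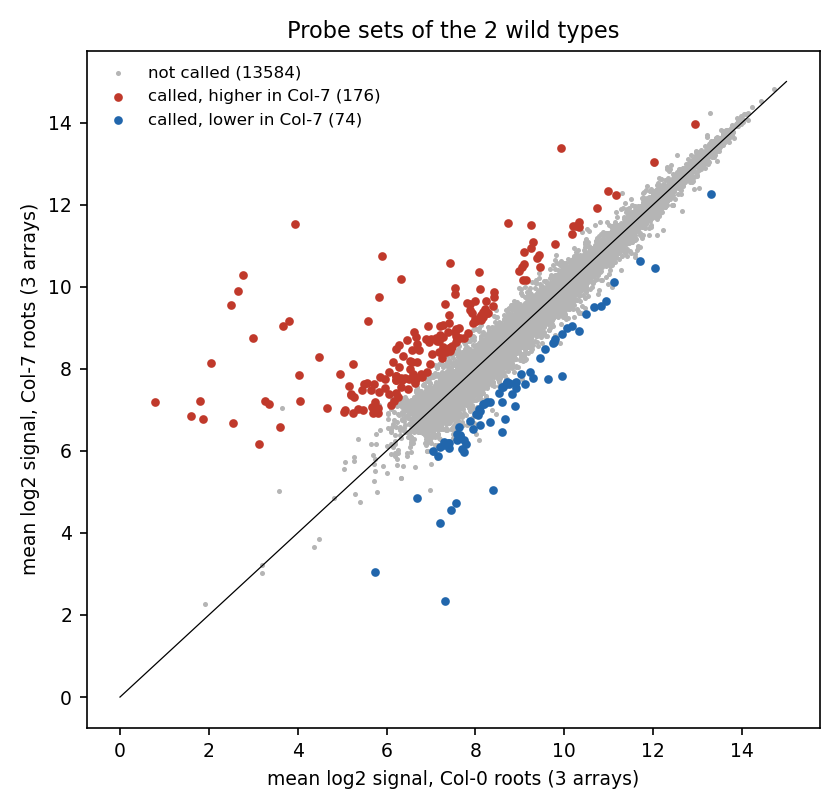
Mean log2 signal of each of 13834 probe sets in Col-0 roots (x axis) and Col-7 roots (y axis), 3 arrays each, with the line of equal signal. Points in red are the 176 called higher in Col-7 and points in blue the 74 called lower. The red points reach farther from the line than the blue ones, mostly at low Col-0 signals.

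The rises were larger than the falls. Among the higher calls 25 passed 8-fold, and among the lower calls 2 did. Much of this lay at the low end of the scale, where a fold is set by a signal near 0. In 70 of the 176 higher calls all 3 Col-0 arrays were under the 40th percentile of their array, and in 22 of the 74 lower calls all 3 Col-7 arrays were. With 32 added to every signal before the logarithm, 11 higher and 0 lower calls passed 8-fold, and 191 of the 250 were still called. The median signal of the higher calls was 110 in Col-0 and 395 in Col-7, and that of the lower calls was 383 in Col-0 and 147 in Col-7. The signal of a probe set is lower where there is less transcript and also where the transcript differs in sequence from the probes, and these cannot be told apart here.

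The calls were unevenly spread along the chromosomes. Of 7336 genes that could be put in order by their locus codes, with 1 probe set a gene, 145 were called (1.98%). Of the 250 called probe sets, 87 paired with no gene and 15 with several, and these have no place in the order. The probe set used for a gene was the one with the highest mean signal. For AT1G22330, AT1G23440 and AT3G53670 this was a second probe set that was not called, so they count as not called here. Where the called probe sets with no gene or several genes lie was not determined, so a stretch with few calls is so for the placed genes only. Chromosomes 1, 3 and 5 held 42 of 1903 measured genes (2.21%), 42 of 1501 (2.8%) and 48 of 1762 (2.72%). Chromosome 2 held 4 of 1083 (0.369%) and chromosome 4 held 9 of 1087 (0.828%). The 4 calls on chromosome 2 were 1 higher and 3 lower, whereas chromosomes 1, 3 and 5 had 31 higher and 11 lower, 31 and 11, and 35 and 13. No test of gene order was run, and these counts are a description.

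**Figure D2:**
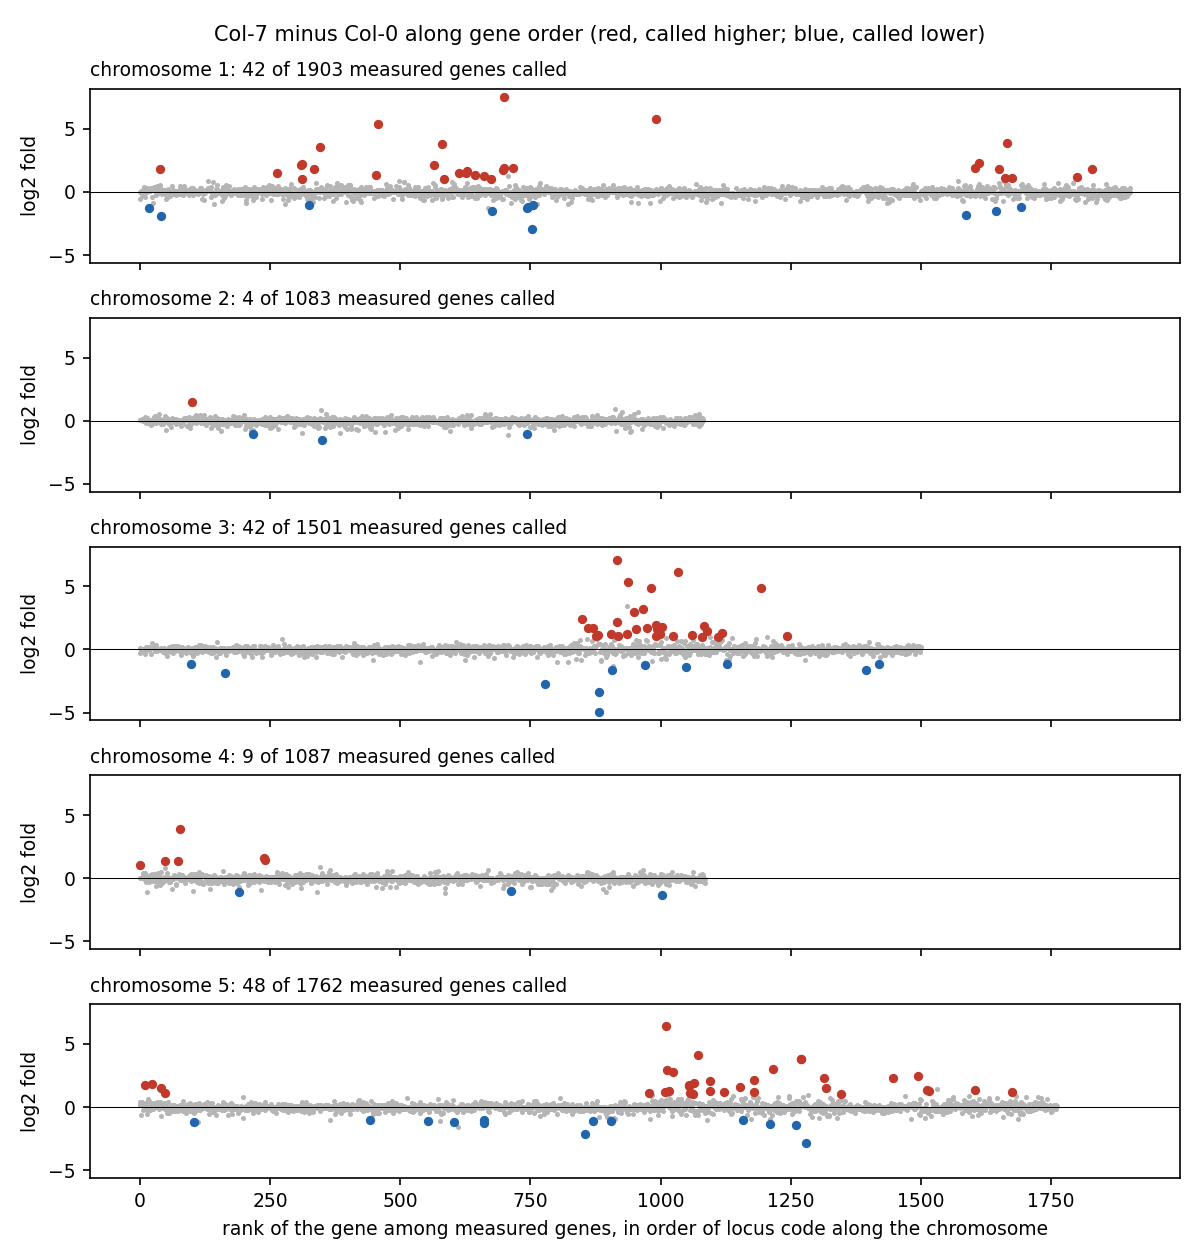
Log2 fold change of Col-7 minus Col-0 (y axis) for each of 7336 genes, ranked along each chromosome by locus code (x axis, rank among measured genes), n = 3 arrays a group. Genes called higher are red, those called lower are blue and the others grey. Red points gather on the middle of chromosome 3 and on the second part of chromosome 5, and are sparse on chromosomes 2 and 4.

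Within chromosomes 1, 3 and 5 the calls gathered in stretches, whose limits were chosen after the values were seen. On chromosome 3, between AT3G27050 and AT3G55960, 37 of 416 measured genes were called (8.89%), 31 higher and 6 lower in Col-7. The 844 genes before it had 3 calls (0.355%), all lower, and the 240 genes after it had 2 (0.833%), also lower. On chromosome 5, between AT5G42000 and AT5G59960, 33 of 551 genes were called (5.99%), 29 higher and 4 lower. The 974 genes before it had 13 calls (1.33%), 4 higher and 9 lower, and the 237 genes after it had 2 (0.844%). Chromosome 1 had calls toward both ends, 30 of 773 genes from AT1G01080 to AT1G26940 (3.88%) and 11 of 321 from AT1G71020 to AT1G80950 (3.43%). Between these lay 809 measured genes with a single call, AT1G43590 (0.124%). In windows of 100 measured genes, 27 of 71 held no call, and 10 held more than 4 each and 86 calls together. The fullest window ran from AT3G29185 to AT3G47010 and held 17 calls, 15 of them higher. A window on chromosome 5 from AT5G42820 to AT5G46210 held 14, all higher in Col-7.

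At a finer scale, calls at most 10 measured genes apart were linked into clusters of 3 or more. This gave 12 clusters with 56 of the 145 called genes (38.6%). The tightest was AT1G11270, AT1G11280 and AT1G11320, the only measured genes in their span, all 3 higher in Col-7. AT1G11280 had signals of 71.0, 89.9 and 107 in Col-0 and of 461, 384 and 409 in Col-7, with no overlap (log2 fold change 2.24 ± 0.17, where the error is the standard error, SE, limma adjusted p = 1.58e-06). Next to it in density was the span from AT1G23830 to AT1G23960, where 3 of 4 measured genes were higher. The largest cluster, from AT3G45530 to AT3G47120, had 9 calls among 38 measured genes, 8 higher and 1 lower. It holds HTB11 and a group of 3 near neighbours, AT3G46690, AT3G46700 and AT3G46720, with log2 fold changes of 1.09, 1.91 and 1.62. The call of AT3G46720 was lost without Col-7 replicate 2 (limma adjusted p = 0.0521), in a fit to the 6 arrays alone (0.0570) and with no filter (0.114). That of AT3G46690 was lost after adding 32 (log2 fold change 0.96). AT1G11320 lost its call without Col-0 replicate 2 (log2 fold change 0.73) or Col-7 replicate 2 (0.95), after adding 32 (0.75) and with no filter (adjusted p = 0.0967). From AT5G44460 to AT5G45220, 7 of 18 measured genes were called, all higher, and from AT5G42990 to AT5G43520 it was 5 of 16, all higher. AT5G43520 in this last span had signals of 394, 410 and 485 in Col-0 and of 3310, 3384 and 2388 in Col-7, well apart (log2 fold change 2.80 ± 0.17 SE, limma adjusted p = 2.32e-07).

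A single cluster held lower calls alone. From AT1G26250 to AT1G26560, 4 of 13 measured genes were called, and all 4 were lower in Col-7. AT1G26250 had signals of 1655, 1997 and 2248 in Col-0 and of 723, 773 and 913 in Col-7 (log2 fold change -1.29, limma adjusted p = 0.000638), and AT1G26380 was at -1.16 on the same scale (limma adjusted p = 0.00167) and at -0.95, under the threshold on the fold, without Col-7 replicate 3. The last gene of the span, AT1G26560, is BGLU40, a beta-glucosidase gene, which had signals of 123, 145 and 129 in Col-0 and of 57.9, 49.9 and 91.1 in Col-7. These groups did not overlap, but the call (log2 fold change -1.04, limma adjusted p = 0.0163) was lost after adding 32 and without any 1 of 3 arrays, Col-0 replicate 2, Col-7 replicate 1 or Col-7 replicate 2 (adjusted p from 0.0603 to 0.0881), with a variance trend (0.0567) and with no filter (0.115). AT1G26530, at -2.95 on the log2 scale by limma (adjusted p = 0.0342), lost its call without each of the 3 Col-0 arrays (adjusted p from 0.0914 to 0.0946) or Col-7 replicate 2 (-2.01 and adjusted p = 0.130).

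Other clusters held calls in both directions. The span from AT3G27200 to AT3G28320 had 7 calls among 33 measured genes, 5 higher and 2 lower. The lower calls were AT3G28310 and AT3G28320, and the higher ones included AT3G27200, at 171, 206 and 185 in Col-0 and 1088, 977 and 929 in Col-7 (log2 fold change 2.42, limma adjusted p = 6.01e-07). Near QQS, from AT3G29330 to AT3G32940, 5 of 15 measured genes were called. QQS and 3 others were higher, and AT3G29410 was lower, with signals of 4156, 3954 and 4490 in Col-0 and 1278, 1233 and 1729 in Col-7 (log2 fold change -1.59, limma adjusted p = 0.000245). From AT5G51440 to AT5G51930, 2 of 4 calls were higher and 2 lower. The neighbours AT5G51620 and AT5G51630 rose by 3.81 and 3.83 in log2 units, and AT5G51930 and AT5G51440 had values of -2.84 and -1.42. The call of AT5G51930 was lost without Col-0 replicate 2 (adjusted p = 0.0532).

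The largest rise belonged to AT1G23960. Its signals were 29.7, 2.81 and 3.84 in Col-0 and 1195, 1316 and 1264 in Col-7 (log2 fold change 7.52 ± 0.59 SE, limma adjusted p = 2.90e-06). In sahy1 it ranged from 1173 to 1459 and in SAHY1OE from 1222 to 1242, so the Col-0 arrays stood apart from the other 9. AT5G43030 had signals of 0.85, 2.14 and 2.40 in Col-0 against 166, 128 and 147 in Col-7 (log2 fold change 6.40, limma adjusted p = 1.96e-08), but only 5.27-fold with 32 added, against 30.3-fold for AT1G23960. AT1G43590, the lone call among the genes placed in the middle of chromosome 1, had signals of 7.37, 18.9 and 3.69 in Col-0 and of 429, 388 and 468 in Col-7 (log2 fold change 5.74, limma adjusted p = 9.85e-07). Its Col-7 arrays also lay far above those of Col-0.

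Other large rises were of the same form, with Col-0 signals close to 0. AT3G48080 had 0.62, 2.32 and 30.0 in Col-0 and 291, 227 and 342 in Col-7 (log2 fold change 6.11, limma adjusted p = 0.000407). AT3G43740 had 9.69, 11.2 and 25.8 against 666, 579 and 495 (log2 fold change 5.36, limma adjusted p = 4.95e-08). AT1G15890 had 3.43, 2.68 and 4.55 against 158, 137 and 149 (log2 fold change 5.41, limma adjusted p = 2.92e-09). In none of these did the groups overlap, and a fold measured from such low signals is loosely set. Among the 15 largest rises, the others had log2 fold changes from 3.78 (AT1G20030) to 4.90 (AT3G53650). In all 15 genes every sahy1 array was above every Col-0 array, and in 14 every SAHY1OE array was, the exception being QQS. These are levels beside the same Col-0 arrays, against which the genes were picked, and no separate comparison. How many of all probe sets kept do the same was not counted, so the counts carry no weight alone.

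Some rises kept a large size with 32 added or lay higher on the scale. AT1G73490 rose from 55.4, 79.7 and 115 to 1162, 1383 and 978 (log2 fold change 3.86, limma adjusted p = 2.10e-07) and was still 10.6-fold higher with 32 added. AT4G02540, one of the 6 higher calls on chromosome 4, had signals of 39.0, 47.6 and 97.3 in Col-0 and of 809, 844 and 931 in Col-7 (log2 fold change 3.93, limma adjusted p = 4.72e-07). On the linear scale AT1G12010 had 582, 602 and 720 in Col-0 and 2033, 2053 and 2444 in Col-7 (log2 fold change 1.78, limma adjusted p = 7.41e-06) and was 3.31-fold higher with 32 added.

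QQS (AT3G30720), an orphan gene that takes part in starch metabolism and is known to vary in level among Arabidopsis lines, had a pattern of its own. Its signals were 1.82, 10.7 and 9.19 in Col-0 and 938, 772 and 596 in Col-7 (log2 fold change 7.07 ± 0.84 SE, limma adjusted p = 0.000127, and 20.2-fold with 32 added). In sahy1 they ranged from 34.2 to 58.4 and in SAHY1OE from 2.17 to 45.9. Col-7 was thus high and the other 3 groups low, and SAHY1OE, whose wild type is Col-7 by the labels, overlapped with Col-0.

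HTB11, a gene for histone H2B, which is part of the nucleosome, had signals of 23.1, 95.6 and 97.6 in Col-0 and of 1613, 1847 and 1704 in Col-7 (log2 fold change 4.84 ± 0.39 SE, limma adjusted p = 3.88e-06). With 32 added the difference was 18.1-fold. Signals in sahy1 (1712 to 1913) and SAHY1OE (1722 to 1943) were at the level of Col-7. Among the 7 measured genes of the histone list, which need not hold every histone gene, this was the single call. Their median log2 fold change was 0.10. HTB1, another H2B gene, went the other way, from 1401, 1310 and 1399 in Col-0 to 859, 822 and 976 in Col-7 (log2 fold change -0.63, limma adjusted p = 0.0042), under the threshold on the fold.

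**Figure D3:**
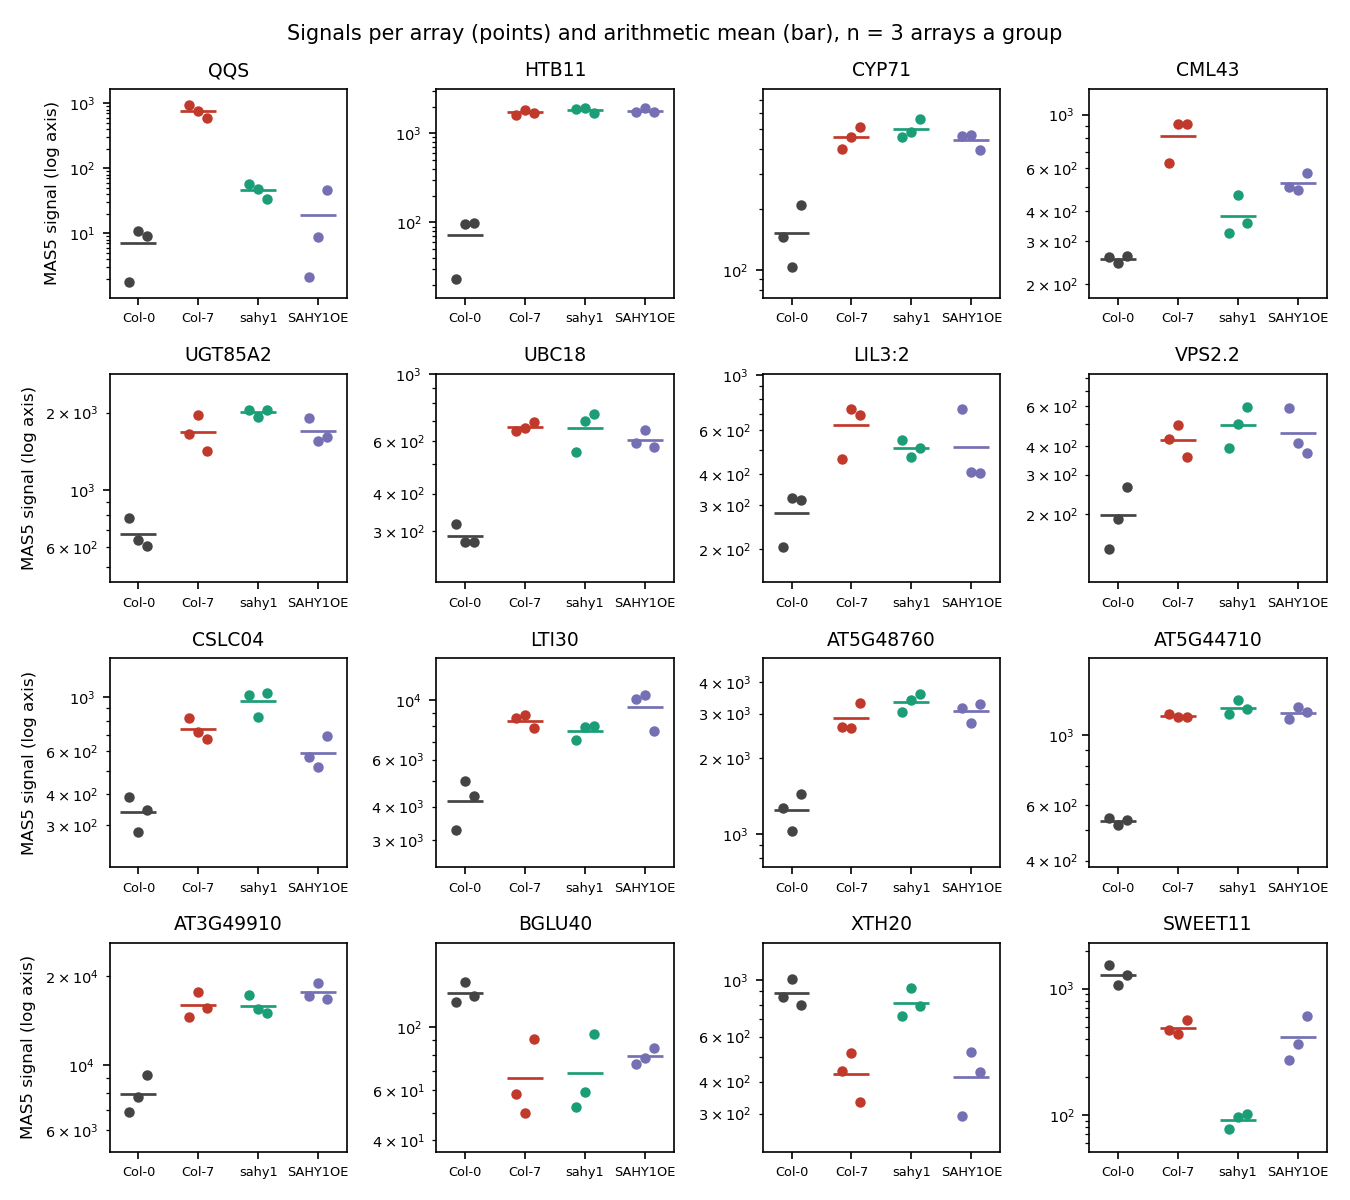
MAS5 signal (y axis, log scale, different in each panel) of 16 called genes in Col-0, Col-7, sahy1 and SAHY1OE roots. Each point is an array and each bar the arithmetic mean of 3 arrays. HTB11 is at 1613 to 1847 in Col-7 and under 100 in Col-0, QQS is high in Col-7 alone, and SWEET11, XTH20 and BGLU40 are highest in Col-0 or, for XTH20, in Col-0 and sahy1.

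Of all called genes, 13 carry a symbol, and the others among them showed smaller changes. CYP71, LIL3:2 and AT5G48760 are described here because the sources annotate them, a choice made after their values were seen. CYP71 encodes a cyclophilin that acts in the nucleus on chromatin, and had signals of 146, 103 and 211 in Col-0 and of 398, 459 and 513 in Col-7 (log2 fold change 1.63 ± 0.21 SE, limma adjusted p = 0.000244). The groups did not overlap, and sahy1 (455 to 559) and SAHY1OE (396 to 468) lay above Col-0 as well. CML43, a calmodulin-like protein of calcium signalling, had 259, 243 and 259 in Col-0 and 630, 918 and 910 in Col-7 (log2 fold change 1.67, limma adjusted p = 2.90e-05). Here sahy1 (324 to 466) and SAHY1OE (489 to 575) lay between the wild types. UBC18, a ubiquitin-conjugating enzyme, had 317, 276 and 276 in Col-0 and 645, 664 and 690 in Col-7 (log2 fold change 1.20, limma adjusted p = 5.90e-05). VPS2.2, which belongs to the ESCRT machinery that sorts membrane proteins, had 140, 190 and 266 in Col-0 and 432, 495 and 357 in Col-7, also without overlap. Its call (log2 fold change 1.14, limma adjusted p = 0.0114) was lost without Col-0 replicate 1 or Col-7 replicate 2 (adjusted p = 0.0592 and 0.0617).

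Of 10 genes of ribosome biogenesis and translation that the study lists as raised in its mutant, 9 could be read here. The other, AT3G18610, had no probe set named for it in the platform table, although the study reports a fold change for it. Of the 9, 3 were called higher in Col-7 and 0 lower, against 1.27% and 0.535% of all probe sets kept. The median log2 fold change of the 9 was 0.25, against -0.01 over all probe sets kept. The list was drawn from arrays that include these Col-0 samples and is not independent evidence of a direction. AT5G44710, for a mitochondrial ribosomal S27/S33 protein, had closely spaced signals of 547, 519 and 540 in Col-0 and of 1166, 1148 and 1141 in Col-7 (log2 fold change 1.11 ± 0.10 SE, limma adjusted p = 1.63e-05). AT5G48760, an L13 family ribosomal protein, had 1263, 1020 and 1438 in Col-0 and 2665, 2639 and 3306 in Col-7 (log2 fold change 1.22, limma adjusted p = 0.000179). AT3G49910, a structural protein of the ribosome, had 6924, 7752 and 9204 in Col-0 and 14578, 17735 and 15588 in Col-7, with no overlap. It was just over 2-fold (log2 fold change 1.01, limma adjusted p = 0.000368) and fell just under it, at log2 fold changes of 0.91, 0.995 and 0.93, when replicate 1 of Col-0, replicate 2 of Col-0 or replicate 2 of Col-7 was left out (adjusted p of 0.00270 to 0.00276), and at 0.97 with quantile normalization. The 6 genes not called lay on both sides of 0, with log2 fold changes of 0.78 for AT1G17560 (limma adjusted p = 0.0180), 0.25 for AT2G40010, -0.27 for AT1G17960, -0.32 for AT5G59240, -0.72 for AT2G18720 and -0.92 for AT3G28500 (adjusted p from 0.160 to 0.753 for these 5).

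SWEET11, a sucrose transporter that releases sugar for loading into the phloem, fell in Col-7. Its signals were 1526, 1068 and 1284 in Col-0 and 466, 438 and 568 in Col-7 (log2 fold change -1.39 ± 0.24 SE, limma adjusted p = 0.00292), and sahy1 (77.0 to 101) was lower than both while SAHY1OE (274 to 607) overlapped with Col-7. The 5 members measured of the sugar transport list had a median log2 fold change of -0.21, and SWEET11 was the only call. XTH20, an enzyme that cuts and rejoins xyloglucan, had 853, 1008 and 800 in Col-0 and 440, 518 and 332 in Col-7 (log2 fold change -1.06, limma adjusted p = 0.00795). Signals in sahy1 (723 to 929) overlapped with Col-0, and those in SAHY1OE (295 to 524) with Col-7. The fold of XTH20 was just under 2 without Col-0 replicate 2 or Col-7 replicate 3 (log2 fold change -0.97 and -0.89, adjusted p = 0.0463 and 0.0442). Of 8 XTH genes measured, 7 had values below 0, with a median of -0.31, and XTH20 alone was called. CSLC04, of the family that makes the glucan backbone of xyloglucan, rose from 390, 280 and 345 to 818, 720 and 676 (log2 fold change 1.13, limma adjusted p = 0.000539). The 11 expansins measured, which loosen cell walls, had no call by limma and a median of -0.07.

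LTI30, a dehydrin of cold and drought responses, had signals of 3269, 4996 and 4374 in Col-0 and of 8578, 8789 and 7852 in Col-7 (log2 fold change 1.02, limma adjusted p = 0.00175). The call lay close to the threshold on the fold, and the value fell below it without Col-7 replicate 2 (log2 fold change 0.98) and without Col-0 replicate 1 (0.845). UGT85A2, which attaches glucose to small molecules, rose from 776, 641 and 604 to 1644, 1960 and 1415 (log2 fold change 1.31 ± 0.15 SE, limma adjusted p = 7.49e-05). It was the only call among the 26 measured genes of the UDP-glycosyltransferase list, whose median was -0.06. That list need not hold every gene of the family. Of 10 glutathione S-transferases measured, out of 48 on the list, none was called. Their median was -0.10, with GSTU18 at -0.92 (limma adjusted p = 0.0210). Of 8 cytochrome P450 genes measured, out of 251 on the list, none was called. Among the 8, 7 had values below 0, and the median was -0.28, against -0.01 over all probe sets kept. WRKY transcription factors (6 of 71 measured, median -0.10), glucosinolate genes (6 of 55, -0.16) and defensins (5 of 89, 0.21) had no calls either. With 1.81% of all probe sets kept called, so few genes would rarely hold a call. A list without calls is therefore no result about its family. In the auxin response list 4 of 133 genes were measured and none was called, with a median of 0.38. GH3.3 was highest at 0.835 but did not reach a limma adjusted p under 0.05. WES1, which conjugates auxin, stood at 0.62 on the log2 scale (limma adjusted p = 0.0141). Of the 13834 probe sets kept, 584 met a limma adjusted p under 0.05 alone (4.22%), of which 355 were higher (2.57%) and 229 lower (1.66%).

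**Figure D4:**
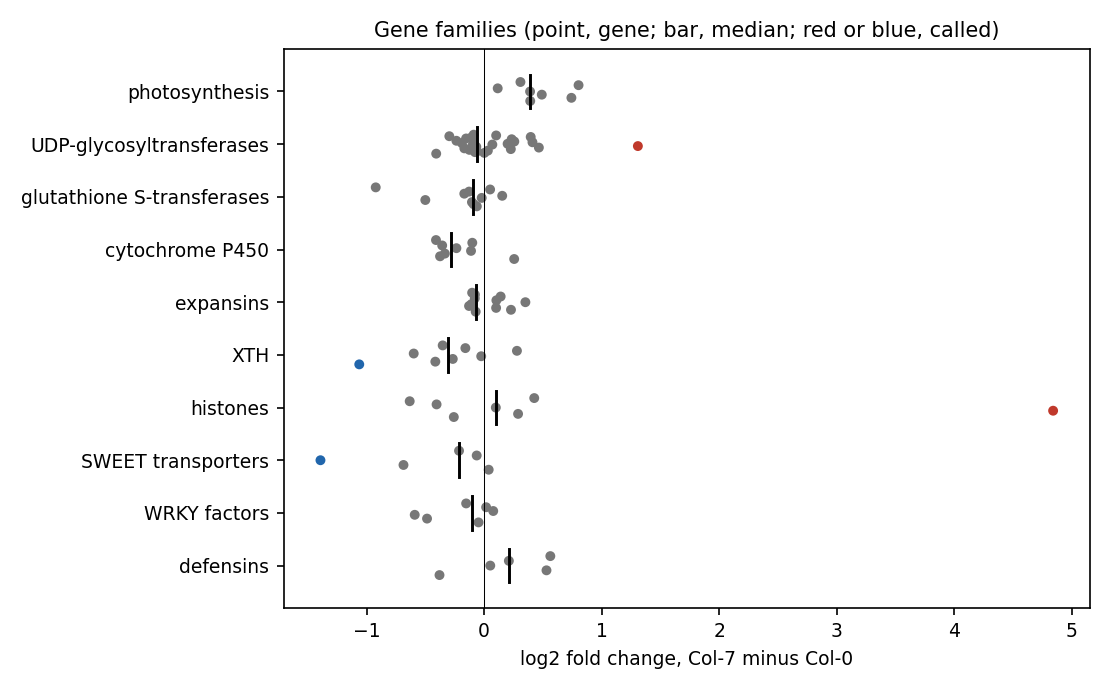
Log2 fold change of Col-7 minus Col-0 (x axis) for the measured members of 10 gene lists (y axis), 3 arrays a group. Points are genes, bars are medians, and red or blue marks a call. All 7 measured photosynthesis genes lie above 0, and HTB11, UGT85A2, SWEET11 and XTH20 lie away from the rest of their lists.

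LIL3:2, a light-harvesting-like protein of chlorophyll synthesis, had signals of 203, 321 and 315 in Col-0 and of 459, 731 and 691 in Col-7 (log2 fold change 1.17 ± 0.25 SE, limma adjusted p = 0.0131). The call was lost without Col-0 replicate 1, Col-7 replicate 2 or Col-7 replicate 3 (adjusted p from 0.0616 to 0.0699). Genes of photosynthesis, which mark green tissue, were looked at beside it. Of 38 on the list 7 were measured, all 7 had values above 0, and the median was 0.39, with 0 called. LHCB4.2, an antenna protein, and PSAN, a subunit of photosystem I, had log2 fold changes of 0.80 and 0.74 (limma adjusted p = 0.0253 and 0.0219). The summed signal of the 7 ranged from 3535 to 4069 in Col-0 and from 5161 to 5594 in Col-7, without overlap, and was 4923 to 5628 in sahy1 and 4601 to 4930 in SAHY1OE. The part of green tissue in the calls was not tested.

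Falls were fewer and smaller. AT3G28310 had signals of 128, 190 and 168 in Col-0 and of 2.18, 3.65 and 16.4 in Col-7 (log2 fold change -4.98 ± 0.60 SE, limma adjusted p = 0.000152). Beside it, AT3G28320 had 321, 348 and 335 in Col-0 and 35.1, 34.6 and 30.0 in Col-7 (log2 fold change -3.33, limma adjusted p = 0.00552), a call lost with no filter on low signals (adjusted p = 0.0765). Both were low in sahy1 and SAHY1OE too, with no array above 61.7, so Col-0 alone was high. AT1G02300 fell from 695, 808 and 880 to 176, 270 and 214 (log2 fold change -1.87, limma adjusted p = 3.66e-05), and AT5G35940 from 1035, 1008 and 924 to 353, 178 and 185 (log2 fold change -2.13, limma adjusted p = 8.41e-05). Among the 15 largest falls every sahy1 array was below every Col-0 array in 12 genes and every SAHY1OE array in 13. The falls were picked against these same Col-0 arrays, and the share over all probe sets kept was not counted. AT3G24780 and AT1G71140 were outside both counts. AT3G24780 had 40.3, 58.8 and 65.8 in Col-0, 6.79, 8.73 and 9.36 in Col-7 and 238 to 290 in sahy1, and AT1G71140 had 100, 108 and 101 in Col-0, 25.1, 22.1 and 43.9 in Col-7 and 135 to 141 in sahy1. In these 2 genes Col-7 was lowest and sahy1 highest.

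A gene with 2 probe sets allows the same transcript to be read again. In 3 called genes a second probe set was kept, and in each the second was not called. AT3G53670 had a log2 fold change of 1.56 by the called probe set and of 0.05 by the other, AT1G23440 of 1.33 and -0.33, and AT1G22330, which was under 2-fold without Col-0 replicate 3, of 1.06 and 0.34 (limma adjusted p = 0.903, 0.644 and 0.428 for the second probe sets). For the other called genes no second probe set was kept.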

How the data were processed

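Root RNA of 12 samples in 4 groups of 3 was hybridised to ATH1 arrays, and the 3 Col-7 and 3 Col-0 arrays form the comparison. The deposited values are intensity values, MAS5 signals on a linear scale, which the authors scaled to a trimmed mean of 500 on each array. The submitters' notes name GeneSpring GX 10.0.1, and no source used here gives a genome build. Signals under 1 (46 to 333 an array) were set to 1 and log2 was taken. The filter kept probe sets with at least 1 group whose 3 arrays all were at or above the array's 40th percentile (110 to 122). Group means of the 12 arrays were fitted with limma 3.58.1 in R 4.3.3 (lmFit, eBayes, two-sided, Benjamini-Hochberg adjusted over all 13834 probe sets kept), and probe sets with a fold above 2 at an adjusted p under 0.05 were called. Python 3.11.15 with pandas 2.3.3 made the tables, and matplotlib 3.10.9 the figures. Genes came from the platform annotation, and 13436 of 13513 were matched to RefSeq. The number of arrays limits the precision. Detection calls were not used.

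The genes named are the 15 largest rises and falls that were also called after adding 32, the called members of the gene lists and of the clusters, SAHY1 and the cell type markers. The members and lists were chosen with earlier results of these data known. CYP71, LIL3:2, AT5G48760, the study's ribosome list, HTB1, GSTU18, WES1, GH3.3, LHCB4.2, PSAN and AT1G12010 were added after their values were seen. Alternatives were quantile normalization, median centring, adding 32, other filters, a fit to 6 arrays, the methods' unpaired test, a replicate block, a variance trend, array weights, other fold rules and leaving out each array.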

Additional observations from a re-analysis of the deposited data

How the results depend on the processing

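The 250 calls between Col-7 and Col-0 became 147 (106 higher and 41 lower) with a filter at the 60th percentile, which tests fewer probe sets, and 584 (355 higher and 229 lower) by adjusted p alone. The methods' unpaired test gave 25 calls (22 higher and 3 lower) after Benjamini-Hochberg adjustment and 251 at its unadjusted threshold with the fold, and the cause was not tested. Of the 148 called probe sets with 1 gene, 86 were still called with the 60th percentile filter and 12 with the unpaired test. The 56 genes in clusters became 29 with a gap of 5 measured genes, 94 with a gap of 20, 23 with no filter and 35 with the 60th percentile filter. Leaving out 1 array in turn gave 232 to 270 calls, 166 to 178 higher and 63 to 95 lower, 51 to 67 genes in clusters and 129 to 137 of the 148. Other scalings and fits gave 197 (with 32 added) to 282 calls (fold alone). Over 59 named genes and 944 gene and setting pairs, 826 kept direction and call, 97 lost the call, 0 reversed, and 21 had no value because the 60th percentile filter left the gene out. The unpaired test lost 51 of the 59. With no filter 12 were lost, AT1G11320, AT1G20030, AT1G23160, AT1G26530, AT3G05950, AT3G28320, AT3G46720, AT5G51930, BGLU40, LIL3:2, VPS2.2 and XTH20 (adjusted p from 0.0704 to 0.203). Adding 32 lost 4, AT1G11320, AT1G22330, AT3G46690 and BGLU40.

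Replicate numbers are shared by the groups, but same-numbered arrays deviated together only in part (r of 0.193, 0.041 and 0.239), and Col-0 replicate 2 correlated better with Col-7 replicate 1 (0.116) than with its own number. With the replicate block the calls were 257, of which 178 were higher and 79 lower. Signals near 0 leave the size of a fold uncertain, and arrays carry no read depth.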
